A study of Mus musculus with 9 samples.

Results

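The subject is a set of 33 genes of secretory and mucous epithelium, measured in the esophagus of newborn mice of 3 genotypes. The set was chosen by name: each member is a mucin, a partner of mucins, an enzyme that adds mucin sugars, a factor of mucous cells, or a product of airway secretory cells. All 33 were on the array, where 45 probes named them. A probe was kept when its sample signal was well above background on at least 2 of the 9 arrays. This kept 44 probes, and each of the 33 genes was read from its brightest kept probe, out of 22651 genes in all. A second Muc16 probe passed on exactly 2 arrays and was the kept probe nearest the limit. The 1 probe left out, for Muc4, reached that level on no array, and other Muc4 probes were kept.

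All mice were C57BL/6J at postnatal day 0, and the groups were wild type (WT, n = 4), p63 knockout (p63KO, n = 3) and p63 knockout that also carried a Villin-Cdx2 transgene (p63KO;Villin-Cdx2, n = 2, numbered out of 3 in the labels). Stratified squamous epithelium depends on p63, encoded by Trp63. Cdx2 directs intestinal identity in the gut. The villin promoter is best known for driving expression in gut epithelium. The deleted part of Trp63 and the number of animals behind each RNA are unknown here. Both p63KO groups lacked p63 by label, so the transgene was compared on the knockout background. The labels name epithelium as the cell type, while the extraction protocol names esophageal tissue. One label of WT replicate 4 named the knockout, and its title, description and genotype named WT. The 3 genotypes were hybridised on separate slides and scanned separately. Slide or scan and genotype therefore cannot be told apart.

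Secretory epithelia make mucus from 2 kinds of mucin. Gel-forming mucins are secreted and swell into a gel, and membrane mucins stay on the cell surface. Mucous (goblet) cells fold these large proteins in the endoplasmic reticulum and add O-linked sugars in the Golgi, under transcription factors such as Spdef. Club cells of the airway secrete secretoglobins and carry cytochrome P450 enzymes, and several epithelia secrete antimicrobial proteins. The adult mouse esophagus is lined by squamous epithelium without goblet cells, while the embryonic foregut that forms esophagus, trachea and lung starts as simple epithelium.

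Each sample was labelled with Cy5 and mixed with 1 reference RNA, made from 11 mouse cell lines and labelled with Cy3. 2 measures are given throughout on the log2 scale: the sample channel, which is the Cy5 signal after normalization, and the log ratio, which is Cy5 over Cy3. On each array 30038 to 33249 probes exceeded background clearly in the sample channel, no sample spot was saturated, and the median sample signal was 294 to 445 intensity units per array. Trp63, the deleted gene, stood at 11.55, 11.80, 12.44 and 12.12 in WT, 10.68, 10.76 and 10.76 in p63KO, and 11.21 and 11.06 in p63KO;Villin-Cdx2, lower in p63KO than in WT (log ratio -1.21, SE 0.18, limma adjusted p = 0.0215) but not absent. Whether its probe lies in the deleted part is not known here. The 12 squamous genes that include Krt5, Krt14 and Trp63 had a summed sample signal of 18.17 to 18.49 in WT, 15.22 to 15.75 in p63KO and 15.33 to 15.54 in p63KO;Villin-Cdx2, and all 12 passed as lower in p63KO than in WT (limma on the sample channel, adjusted p below 0.05). Of all genes, 1.96% were called in that comparison of the sample channel. Genes of other tissues were bright as well. Sftpc, the surfactant protein of lung alveolar cells, stood at 18.25 to 18.71 on 8 arrays and at 15.74 on WT replicate 3. Levels of different genes are not compared below, because each is read by a probe of its own.

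3 arrays stood apart from the rest of their genotype for the secretory set: WT replicate 1, p63KO replicate 1 and p63KO;Villin-Cdx2 replicate 1. The results that rest on them are given with and without them.

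Because bulk tissue was measured, fewer cells of a type and less RNA per cell cannot be told apart. The same reference RNA was on all arrays, yet for many of these genes the reference channel moved with the sample channel. The reference signal of a gene ranged by more than 1 log2 unit over the 9 arrays for 22 of the 33 genes, against 5.70% of all genes, and by more than 3 for 10 of the 33, against 0.437% of all genes. The median range was 1.61 for the set and 0.29 for all genes. A shift shared by both channels is lost from the log ratio. What moved the reference channel was not tested.

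**Figure D1:**
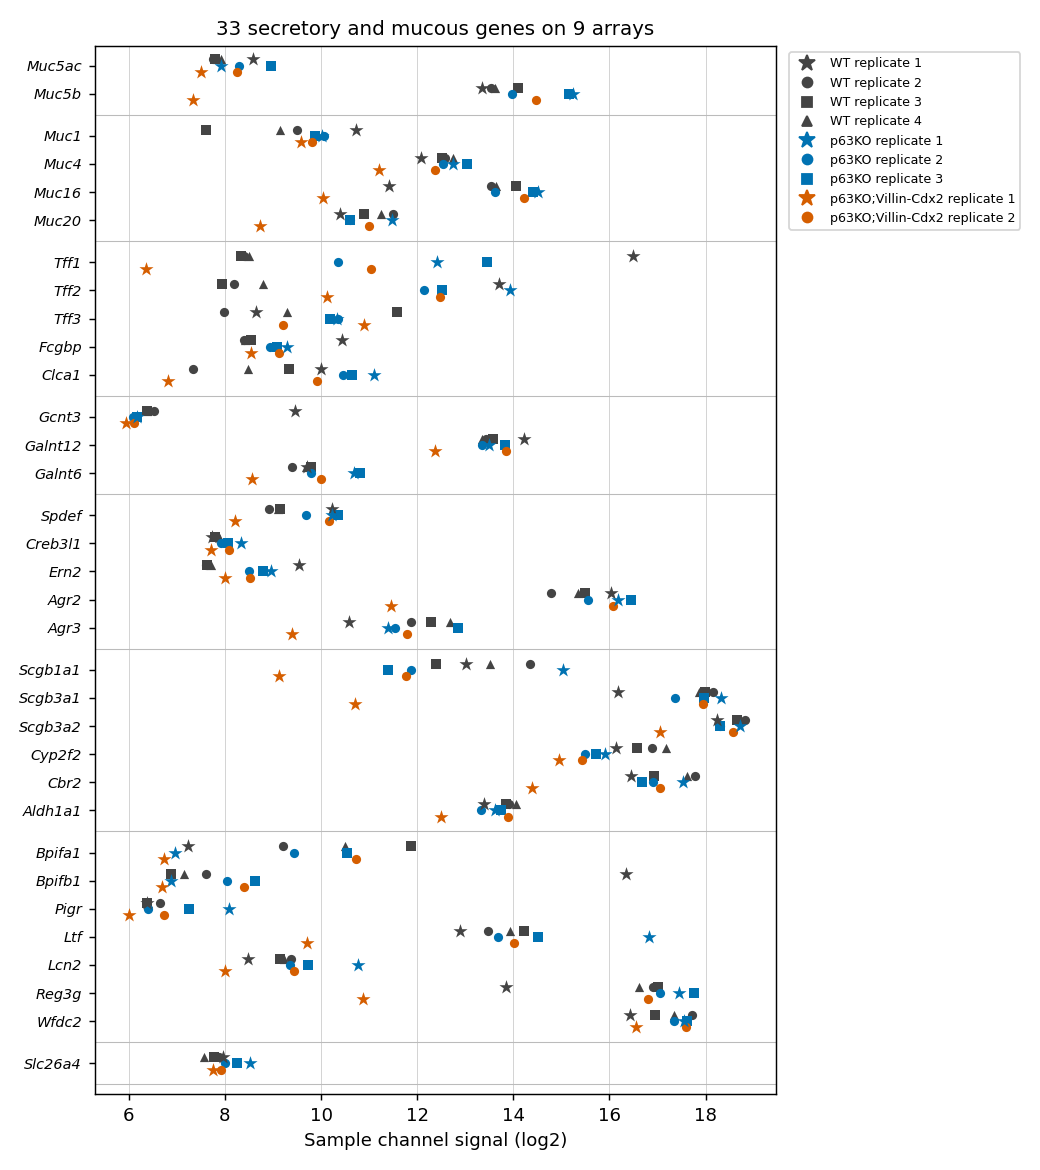
Sample channel signal (log2, horizontal axis) of the 33 secretory and mucous genes, grouped by role from gel-forming mucins at the top to ion transport at the bottom. Each mark is 1 array, with colour for genotype and shape for replicate number. The orange star, p63KO;Villin-Cdx2 replicate 1, lies lowest for 26 of the 33 genes, and the dark star, WT replicate 1, lies far to the right for Tff1, Bpifb1 and Gcnt3.

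The gel-forming mucins were Muc5b and Muc5ac, the main mucins of airway and gastric mucus. Muc5b stood at 13.34, 13.53, 14.09 and 13.61 in WT replicates 1 to 4. It stood at 15.23, 13.97 and 15.15 in p63KO, and at 7.34 and 14.47 in p63KO;Villin-Cdx2. The fall was on 1 array: p63KO;Villin-Cdx2 replicate 1 lay far below every other array, and replicate 2 lay inside the range of p63KO. The Muc5b log ratio was 3.34 to 3.81 in WT, 3.61 to 3.75 in p63KO, and 0.72 and 3.38 in p63KO;Villin-Cdx2. Muc5ac was dim, at 7.76 to 8.58 in WT, 7.92 to 8.95 in p63KO, and 7.50 and 8.25 in p63KO;Villin-Cdx2, and the 3 groups overlapped.

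Of the 4 membrane mucins, Muc16 is a very large surface mucin of the airway and eye. Its sample signal was 11.41, 13.53, 14.05 and 13.64 in WT, 14.51, 13.62 and 14.41 in p63KO, and 10.04 and 14.21 in p63KO;Villin-Cdx2. WT replicate 1 and p63KO;Villin-Cdx2 replicate 1 were the low arrays. The second kept Muc16 probe lay near background, at 5.97 to 6.52 over all arrays, so these values rest on 1 probe. Muc20 stood at 10.40, 11.50, 10.90 and 11.24 in WT, 11.47, 10.60 and 10.60 in p63KO, and 8.73 and 10.99 in p63KO;Villin-Cdx2. Muc1, a mucin of most simple epithelia, followed another order, with 10.72, 9.49, 7.61 and 9.14 in WT, 10.02, 10.06 and 9.87 in p63KO, and 9.57 and 9.80 in p63KO;Villin-Cdx2. Its low array was WT replicate 3, and the p63KO;Villin-Cdx2 arrays differed by 0.23. Muc4 ranged from 11.22 to 13.03, with p63KO;Villin-Cdx2 replicate 1 lowest.

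The trefoil peptides Tff1, Tff2 and Tff3 are small secreted proteins that bind mucus, with Tff1 and Tff2 best known from the stomach and Tff3 from intestinal goblet cells. Tff1 stood at 16.49 in WT replicate 1 and at 8.39, 8.34 and 8.51 in WT replicates 2 to 4. It stood at 12.41, 10.36 and 13.46 in p63KO, and at 6.35 and 11.04 in p63KO;Villin-Cdx2. Leaving aside WT replicate 1, all p63KO arrays lay above the WT arrays. Tff2 stood at 13.71, 8.19, 7.94 and 8.79 in WT, 13.93, 12.15 and 12.51 in p63KO, and 10.12 and 12.47 in p63KO;Villin-Cdx2. WT replicate 1 lay with p63KO, and the other WT arrays lay below every p63KO and p63KO;Villin-Cdx2 array. Tff3 ranged from 7.97 to 11.57 and was the 1 member that was more than 2-fold brighter in p63KO;Villin-Cdx2 replicate 1 (10.89) than in replicate 2 (9.20).

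Clca1 is a secreted protein of goblet cells that modifies mucus. It stood at 10.003, 7.35, 9.33 and 8.48 in WT, 11.10, 10.46 and 10.65 in p63KO, and 6.81 and 9.91 in p63KO;Villin-Cdx2. Every p63KO array lay above every WT array. Fcgbp, a protein of intestinal mucus, ranged from 8.41 to 10.44, with WT replicate 1 highest.

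The 60-base probes that read 3 of these genes are shown because their signals carry the contrasts between single arrays described here. In the mm9 coordinates of the files each covers more bases than its own length, so that it crosses at least 1 intron and reads spliced RNA. The Tff2 probe covers chr17:31279256-31280080, the Ern2 probe chr7:129316864-129317006 and the Lcn2 probe chr2:32241037-32241281, all on the minus strand. No letters are in capitals, since the junction within each probe was not located.
Tff2: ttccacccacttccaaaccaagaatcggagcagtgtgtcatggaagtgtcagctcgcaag
Ern2: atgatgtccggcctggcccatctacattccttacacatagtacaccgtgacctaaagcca
Lcn2: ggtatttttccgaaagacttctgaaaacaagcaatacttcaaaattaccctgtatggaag

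Among the enzymes of O-linked sugars, Gcnt3 builds branched core structures of mucins. It stood at 9.45 in WT replicate 1 and at 6.52, 6.38 and 6.37 in the other WT arrays. Its values in p63KO were 6.17, 6.09 and 6.16, and in p63KO;Villin-Cdx2 5.94 and 6.11, not well above background on any of these 5 arrays. With dim arrays taken at their bound, the WT mean lay 2.05-fold above p63KO and 2.10-fold above p63KO;Villin-Cdx2, each with replicate 1 in the WT mean. For p63KO the bound equals the plain difference of means. Neither difference passed (limma on the sample channel, adjusted p = 0.524 and 0.439). Without WT replicate 1 the bounds were 1.22-fold and 1.24-fold. Such bounds are open to dye bias. Galnt6 and Galnt12 attach the first sugar of the chain. Galnt6 stood at 9.71, 9.40, 9.79 and 9.69 in WT, 10.68, 9.78 and 10.80 in p63KO, and 8.56 and 9.99 in p63KO;Villin-Cdx2. Galnt12 stood at 14.21, 13.42, 13.57 and 13.35 in WT, 13.50, 13.34 and 13.82 in p63KO, and 12.37 and 13.86 in p63KO;Villin-Cdx2. For both enzymes the lowest array was p63KO;Villin-Cdx2 replicate 1.

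Agr2, a protein of the endoplasmic reticulum that mucous cells need to make mucins, stood at 16.04, 14.78, 15.49 and 15.34 in WT and at 16.18, 15.56 and 16.45 in p63KO. In p63KO;Villin-Cdx2 it stood at 11.46 and 16.08. Its relative Agr3 stood at 10.58, 11.88, 12.29 and 12.69 in WT, 11.40, 11.55 and 12.85 in p63KO, and 9.39 and 11.78 in p63KO;Villin-Cdx2. Spdef, the transcription factor of mucous cells, stood at 10.23, 8.91, 9.15 and 9.11 in WT, 10.22, 9.68 and 10.36 in p63KO, and 8.22 and 10.16 in p63KO;Villin-Cdx2. All 3 were lowest on p63KO;Villin-Cdx2 replicate 1. Ern2, a stress sensor of the endoplasmic reticulum in mucous cells, was high on the same array as Tff1 and Tff2: 9.55 in WT replicate 1, 7.60, 7.63 and 7.71 in the other WT arrays, 8.95, 8.50 and 8.79 in p63KO, and 8.002 and 8.52 in p63KO;Villin-Cdx2. Creb3l1 was dim, between 7.70 and 8.32.

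Of the club cell genes, Scgb3a1, a secretoglobin of the airway, stood at 16.18, 18.16, 17.99 and 17.87 in WT, 18.32, 17.36 and 17.96 in p63KO, and 10.72 and 17.95 in p63KO;Villin-Cdx2. Scgb1a1, the classical club cell protein, stood at 13.01, 14.34, 12.38 and 13.52 in WT, 15.03, 11.87 and 11.39 in p63KO, and 9.12 and 11.77 in p63KO;Villin-Cdx2. Cbr2, a carbonyl reductase of club cells, stood at 16.46, 17.77, 16.93 and 17.61 in WT, 17.52, 16.91 and 16.69 in p63KO, and 14.39 and 17.06 in p63KO;Villin-Cdx2. For these 3 genes the lowest array was p63KO;Villin-Cdx2 replicate 1. Replicate 2 lay inside the ranges of WT and p63KO for Scgb3a1 and Cbr2. For Scgb1a1 it lay inside the range of p63KO and below every WT array. Scgb3a2 ranged from 17.06 to 18.83 and Aldh1a1 from 12.50 to 14.06, both lowest on p63KO;Villin-Cdx2 replicate 1.

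Cyp2f2, a cytochrome P450 of club cells, was called in the sample channel of 1 comparison and not in the log ratio. Its sample signal was 16.13, 16.88, 16.57 and 17.18 in WT, 15.91, 15.50 and 15.73 in p63KO, and 14.96 and 15.42 in p63KO;Villin-Cdx2, with no overlap between any 2 groups. Of all genes, 19.2% did not overlap between p63KO and WT and 32.4% between p63KO;Villin-Cdx2 and WT, in either direction. Between p63KO;Villin-Cdx2 and p63KO, 16.3% of all genes did not overlap with Cdx2 lower. Cyp2f2 was 2.83-fold lower in p63KO;Villin-Cdx2 than in WT (log2 difference -1.50, SE 0.28, limma on the sample channel, adjusted p = 0.0345). This was the 1 call among the 33 genes in any comparison and either measure. Against WT, p63KO was lower by -0.98 (SE 0.25), which did not pass (limma, adjusted p = 0.0978). The call did not hold in the log ratio, which was 2.94 to 3.33 over all arrays and differed by 0.09 (SE 0.11, limma, adjusted p = 0.713). The Cyp2f2 reference signal fell as well, from 13.19 to 14.20 in WT to 11.71 and 12.33 in p63KO;Villin-Cdx2. The sample channel call was lost without p63KO;Villin-Cdx2 replicate 1 (limma, adjusted p = 0.156), without replicate 2 of that genotype (adjusted p = 0.0604), without WT replicate 2, 3 or 4 (adjusted p = 0.0931, 0.0684 and 0.0739) and without p63KO replicate 2 or 3 (adjusted p = 0.0514 and 0.0629). It held without WT replicate 1 or p63KO replicate 1 (limma, adjusted p = 0.0164 and 0.0418).

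The genes of host defence varied between single arrays. Bpifb1, a secreted lipid-binding protein of the upper airway, stood at 16.34 in WT replicate 1 and between 6.70 and 8.63 on the other 8 arrays. Its relative Bpifa1 was low on the same array, at 7.23, against 9.21, 11.87 and 10.49 in the other WT arrays, and it was also low in p63KO replicate 1 (6.95) and p63KO;Villin-Cdx2 replicate 1 (6.73). Ltf, the iron-binding protein of secretions and of neutrophil granules, stood at 12.90, 13.46, 14.23 and 13.93 in WT, 16.82, 13.68 and 14.51 in p63KO, and 9.71 and 14.02 in p63KO;Villin-Cdx2. The high array was p63KO replicate 1 and the low one p63KO;Villin-Cdx2 replicate 1. A second Ltf probe gave the same order for these arrays, with 15.91 and 9.09. Lcn2, a siderophore-binding protein shared by neutrophils and epithelia, was also highest in p63KO replicate 1, at 10.78, against 8.47 to 9.38 in WT. Pigr, the receptor that carries IgA into secretions, was highest there too, at 8.08, against 6.37 to 6.65 in WT.

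Reg3g, an antibacterial lectin, stood at 13.84, 16.91, 17.01 and 16.62 in WT, 17.45, 17.06 and 17.75 in p63KO, and 10.87 and 16.81 in p63KO;Villin-Cdx2. Wfdc2, a secreted protease inhibitor, ranged from 16.42 to 17.71 over all arrays. The anion exchanger Slc26a4 stood at 7.95, 7.88, 7.78 and 7.56 in WT, 8.53, 8.01 and 8.26 in p63KO, and 7.76 and 7.93 in p63KO;Villin-Cdx2. Every p63KO array lay above every WT array for Slc26a4, by little.

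The comparison of p63KO with WT asks how loss of p63 bears on the set, and none of the 33 genes passed. In the log ratio 184 of 22651 genes were called (0.812%), 23 higher and 161 lower (limma, adjusted p below 0.05). In the sample channel 445 were called (1.96%), again none of the set. At an unadjusted p below 0.05 there were 5 members in each measure (15.2%), against 9.18% of all genes in the log ratio and 16.7% in the sample channel. The median difference of the set was 0.02 in the log ratio and 0.39 in the sample channel, against 0.01 and 0.00 over all genes, with 17 and 23 of the 33 above 0. Clca1, Creb3l1, Lcn2 and Slc26a4 were higher in p63KO with no overlap of arrays in the log ratio. That is 4 of 33, against 5.76% of all genes. In the sample channel 6 of 33 did not overlap in either direction, against 19.2% of all genes. The 6 include Gcnt3, which was kept through its WT arrays alone, so that its lack of overlap carries no weight. In the log ratio Slc26a4 had the lowest adjusted p of the set (log2 difference 0.51, SE 0.14, limma, adjusted p = 0.237), and Clca1 had the largest difference of the 4 (1.58, SE 0.67, limma, adjusted p = 0.526).

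This comparison turned on WT replicate 1 for 3 genes. With all arrays, Tff2 was higher in p63KO by 3.20 (SE 1.39) in the sample channel and did not pass (limma, adjusted p = 0.298). Without WT replicate 1 the difference was 4.55, a 23.5-fold rise that passed (limma, adjusted p = 0.0236), and the log ratio difference of 1.12 passed as well (adjusted p = 0.0161). Ern2 was then higher by 1.10 (limma on the sample channel, adjusted p = 0.0254), and Cyp2f2 lower by -1.16 (adjusted p = 0.0393). Of all genes, 0.72% were called in that log ratio fit and 1.64% in that of the sample channel. Without both WT replicate 1 and p63KO;Villin-Cdx2 replicate 1, the Tff1 log ratio also passed as higher in p63KO (1.25, limma, adjusted p = 0.0305), and so did Fcgbp in the sample channel (0.65, limma, adjusted p = 0.0476), where 1.18% and 1.96% of all genes were called. The choice of arrays to leave out was made after their values were seen.

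WT replicate 1 was the highest of the 9 arrays for 7 of the 33 genes in the sample channel, against 11.6% of all genes. It was also the 1 array with stomach genes. The summed sample signal of 9 measured genes of gastric glands and pits, of 11 listed, was 17.20 there, 9.92 to 10.68 in the other WT arrays, 10.32 to 10.91 in p63KO and 10.37 to 10.62 in p63KO;Villin-Cdx2. Atp4b, a subunit of the acid pump of parietal cells, stood at 16.55 in WT replicate 1 and at 7.01 to 8.06 on the other arrays. Gkn2, a secreted protein of gastric pit cells, stood at 14.48 there and at 6.04 to 7.32 elsewhere, while Gkn1 did not rise well above background on any array. The part of this array's gastric signal in its high Tff1, Tff2, Gcnt3, Ern2, Fcgbp and Bpifb1 was not tested.

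p63KO replicate 1 was the highest of the 9 arrays for 11 of the 33 genes in the sample channel, against 14.6% of all genes, Ltf, Lcn2 and Pigr among them. It was high in other marker lists. Amy1, a salivary amylase, stood at 17.13 there and at 10.10 to 13.25 elsewhere. It carried most of its list: the 8 measured genes of salivary and mucous gland acini, of 10 listed, summed to 17.33 there, 13.86 to 14.39 in WT, 13.95 and 14.25 in the other p63KO arrays and 13.94 to 14.12 in p63KO;Villin-Cdx2, and Mucl2 and Prol1 did not rise well above background. The median of the list was 8.93 there and 9.81 and 9.63 in the other p63KO arrays, and Dcpp1 (5.99, against 9.27 and 8.41) and Dcpp2 (6.09, against 7.83 and 7.34) were lower there. The 14 measured neutrophil and myeloid granule genes, of 15 listed, summed to 18.95 there, 17.08 to 17.86 in WT, 17.55 and 17.56 in the other p63KO arrays, and 16.14 and 17.54 in p63KO;Villin-Cdx2. The median of this list was also highest there, at 11.68, against 8.13 to 10.52 elsewhere. None of these 14 genes passed in any comparison (limma, both measures), where 0% to 3.55% of all genes were called. Their part in the Ltf, Lcn2 and Pigr signals was not tested.

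**Figure D2:**
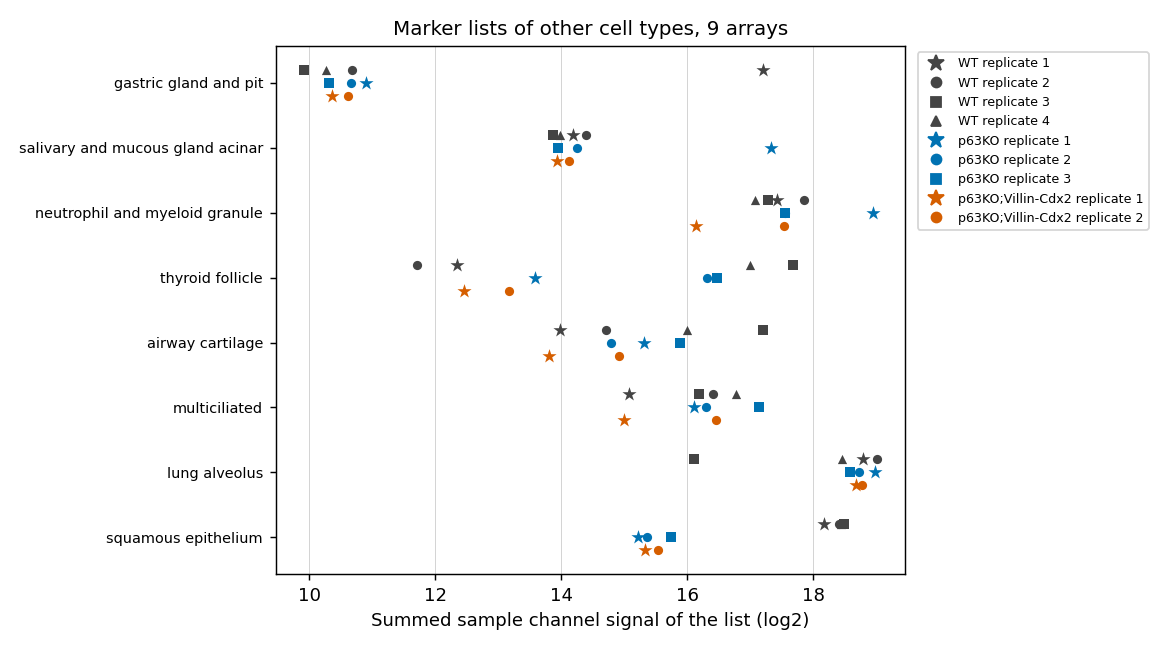
Summed sample channel signal (log2, horizontal axis) of 8 marker lists, one list per line, with 1 mark for each of the 9 arrays, coloured by genotype and shaped by replicate number. The gastric list is at 17.20 in WT replicate 1 and at 10.91 or less on the other arrays, and the salivary list is at 17.33 in p63KO replicate 1, where Amy1 alone is at 17.13. The squamous list separates WT from both other genotypes.

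The comparison of p63KO;Villin-Cdx2 with p63KO asks what the Cdx2 transgene changed on the knockout background. All 33 secretory and mucous genes had a lower mean with Cdx2 in both measures, and none passed. The median difference of the set was -0.45 in the log ratio and -0.90 in the sample channel, against -0.03 and -0.00 over all genes, of which 43.8% and 49.4% were above 0. No gene of the 22651 was called in the log ratio (0%, limma, adjusted p below 0.05), while 3182 had an unadjusted p below 0.05 (14%), among them 10 members (30.3%). In the sample channel 67 genes were called (0.296%), again no member, and 7 members had an unadjusted p below 0.05 (21.2%, against 18.4% of all genes). The groups did not overlap, with Cdx2 lower, for 12 of the 33 in the log ratio, against 18% of all genes, and for 6 in the sample channel, against 16.3% of all genes.

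The p63KO;Villin-Cdx2 arrays differed from each other. Replicate 1 was the lowest of the 9 arrays for 26 of the 33 genes in the sample channel, against 17.9% of all genes, and for 22 of 33 in the log ratio, against 21.1% of all genes. It was below replicate 2 by more than 2-fold for 23 members (4.28% of all genes) and by more than 4-fold for 14 (0.998% of all genes). The median of replicate 1 minus replicate 2 was -1.51 over the set and 0.03 over all genes. The fall was 151-fold for Scgb3a1, 141-fold for Muc5b, 61.2-fold for Reg3g, 25.9-fold for Tff1, 24.5-fold for Agr2, 19.8-fold for Ltf, 18.0-fold for Muc16 and 15.99-fold for Bpifa1. It was 1.37-fold for Cyp2f2 and 1.17-fold for Muc1. Replicate 2 was the lowest of the 9 arrays for no member in the sample channel, but it lay below every p63KO array for Muc1, Muc4, Tff3, Clca1, Cyp2f2, Reg3g and Slc26a4, and for Tff3 replicate 1 was the highest of these 5 arrays.

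Without replicate 1, no member passed between p63KO;Villin-Cdx2 and p63KO in either measure, and the lowest adjusted p was 0.649 in the log ratio and 0.615 in the sample channel (limma). Without replicate 2, Muc5b (-7.45), Scgb3a1 (-7.17) and Agr2 (-4.60) passed in the sample channel (limma, adjusted p = 0.00698, 0.0180 and 0.0180), and Muc5b passed in the log ratio (-2.96, limma, adjusted p = 0.00515). Of all genes, 0.517% were called in that sample channel fit and 0.159% in that of the log ratio. In these fits the lone array is assumed to vary like the other groups.

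**Figure D3:**
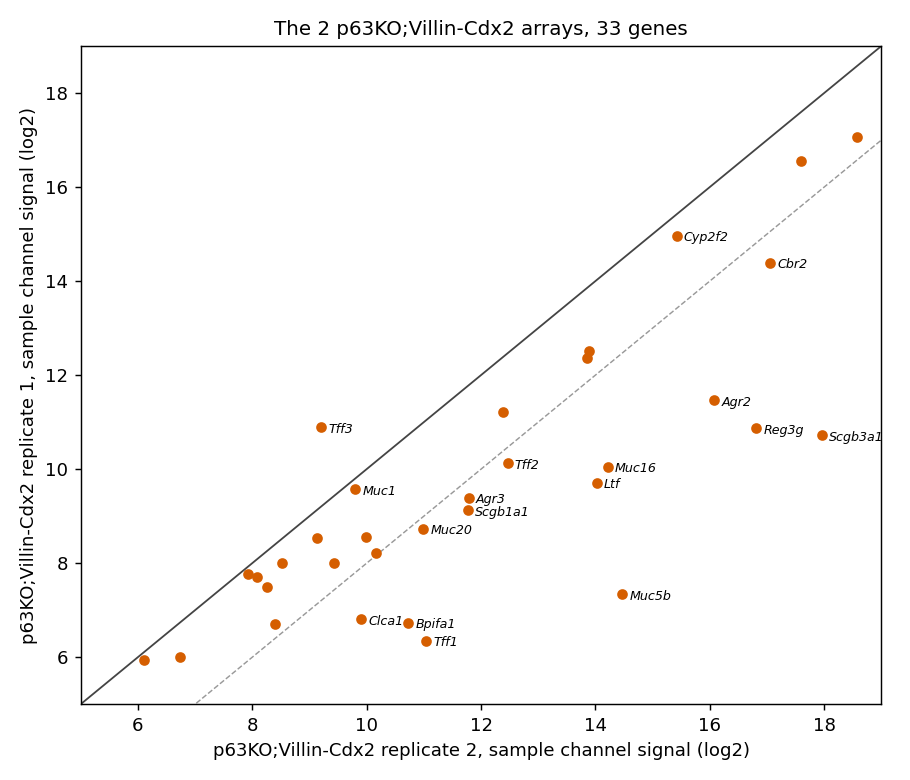
Sample channel signal (log2) of the 33 genes in p63KO;Villin-Cdx2 replicate 1 (vertical axis) against replicate 2 (horizontal axis), 1 point per gene. The solid line marks equal signals and the dashed line a fall of 4-fold. Points lie below the solid line for all genes but Tff3, with Muc5b and Scgb3a1 farthest below.

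Some other epithelial signals were low on the same array and others were not. The 13 measured multiciliated genes, of 15 listed, summed to 15.01 in p63KO;Villin-Cdx2 replicate 1 and to 15.09 in WT replicate 1, against 16.11 to 17.14 on the other arrays. Foxj1, the regulator of motile cilia, stood at 11.12 and 12.59 in the p63KO;Villin-Cdx2 arrays and was lowest, at 10.74, in WT replicate 1. The 26 airway secretory genes outside the set summed to 17.30 in p63KO;Villin-Cdx2 replicate 1 and to 18.38 to 19.01 elsewhere. The summed neutrophil and myeloid list was lowest there (16.14, against 17.08 or more elsewhere), a sum led by Lyz2 (15.25), while the median of the list, 8.76, lay above WT replicates 1, 2 and 4 (8.13, 8.55 and 8.71). The summed list of 10 airway cartilage genes, led by Col2a1, was lowest there too (13.81, against 13.99 to 17.21 elsewhere), while its median was lowest in WT replicate 1 (7.73, against 7.97). The 9 lung alveolar genes summed to 18.68 in replicate 1 and 18.78 in replicate 2, and Sftpc stood at 18.55 and 18.56. The list of 23 genes of the secretory pathway of the endoplasmic reticulum was at 19.01 there, inside the range of 18.70 to 19.13 over the other arrays. The part of these cell types in the low secretory signals was not tested.

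Stretches of 250 bases upstream of the transcript start are shown for 3 genes that fell together on p63KO;Villin-Cdx2 replicate 1. A Cdx motif was searched since that genotype carries a Cdx2 transgene. Replicate 2 has the same genotype by label and did not share the fall, with Agr2 at 16.08, Reg3g at 16.81 and Scgb3a1 at 17.95. Whether the transgene bears on the fall was not tested. The motif searched was TTTATNG, a core that Cdx factors can bind, on both strands, and its matches are in capitals. The sequences are from RefSeq, build GRCm38.p6, and cover chr12:35992675-35992924 on the plus strand for Agr2, chr6:78468875-78469124 on the minus strand for Reg3g and chr11:49663345-49663594 on the plus strand for Scgb3a1.
Agr2: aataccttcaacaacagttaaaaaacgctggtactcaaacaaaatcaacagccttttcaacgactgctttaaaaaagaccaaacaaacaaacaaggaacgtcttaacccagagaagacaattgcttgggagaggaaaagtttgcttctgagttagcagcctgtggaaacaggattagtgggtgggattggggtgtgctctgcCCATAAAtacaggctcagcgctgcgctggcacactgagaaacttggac
Reg3g: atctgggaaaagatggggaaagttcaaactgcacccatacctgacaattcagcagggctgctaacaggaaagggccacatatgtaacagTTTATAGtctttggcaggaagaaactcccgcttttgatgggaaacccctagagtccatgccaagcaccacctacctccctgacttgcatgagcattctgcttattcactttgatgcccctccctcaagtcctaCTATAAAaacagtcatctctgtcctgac
Scgb3a1: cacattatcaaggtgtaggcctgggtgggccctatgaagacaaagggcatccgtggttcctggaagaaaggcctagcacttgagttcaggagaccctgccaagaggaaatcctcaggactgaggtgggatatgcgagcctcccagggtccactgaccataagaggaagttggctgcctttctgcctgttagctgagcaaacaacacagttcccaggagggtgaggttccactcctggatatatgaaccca

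The motif began 48 bases before the start of Agr2, and 161 and 28 bases before that of Reg3g. Scgb3a1 had none in this window and fell most. Of the 21 members in the promoter table, 6 had a match, namely Agr2, Bpifa1, Lcn2, Muc4, Reg3g and Slc26a4, which is 28.6% of the members listed there against 11.3% of all genes in that table. Among these 6, replicate 1 lay below replicate 2 by 61.2-fold for Reg3g, 24.5-fold for Agr2 and 15.99-fold for Bpifa1. For Lcn2, Muc4 and Slc26a4 the fall was 2.68-fold, 2.24-fold and 1.12-fold. A match is a stretch of letters and shows no binding. The search did not set this core apart from other motifs that share its letters, such as the TATA box. The Reg3g match 28 bases before the start reads CTATAAA and holds the TATA box letters TATAAA. What the higher share reflects was not tested.

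The comparison of p63KO;Villin-Cdx2 with WT joins both changes and shares the arrays of the comparisons above. In the log ratio 803 of 22651 genes were called (3.55%), 264 higher and 539 lower, and in the sample channel 655 (2.89%, limma, adjusted p below 0.05). No member passed in the log ratio, where 6 of the 33 had an unadjusted p below 0.05 (18.2%, against 21.5% of all genes). Cyp2f2 alone passed in the sample channel, where 2 did (6.06%, against 21.8% of all genes). The median difference of the set was -0.43 in the log ratio and -0.68 in the sample channel, against -0.02 and 0.00 over all genes. Scgb1a1 came nearest in the log ratio, with values of 2.82 to 3.05 in WT and 1.76 and 2.67 in p63KO;Villin-Cdx2 (difference -0.74, SE 0.23, limma, adjusted p = 0.119), and its groups did not overlap. Muc4 and Gcnt3 also did not overlap in the log ratio, which makes 3 of 33, against 31% of all genes. In the sample channel 3 did not overlap (Gcnt3, Scgb1a1 and Cyp2f2), against 32.4% of all genes. Gcnt3 was kept through its WT arrays alone and was not well above background in p63KO;Villin-Cdx2. Its lack of overlap in either measure therefore carries no weight.

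The arrays that stood apart set this comparison too. Without p63KO;Villin-Cdx2 replicate 2, 5 members passed as lower in each measure, where 2.73% of all genes were called in the log ratio and 2.08% in the sample channel. In the log ratio these were Muc5b (-2.87), Muc20 (-2.26), Scgb1a1 (-1.19), Cbr2 (-1.44) and Aldh1a1 (-1.19), and in the sample channel Muc5b (-6.31), Scgb3a1 (-6.83), Agr2 (-3.95), Cbr2 (-2.80) and Scgb3a2 (-1.55), by limma. Without WT replicate 1, Tff2 passed as higher (0.82, limma on the log ratio, adjusted p = 0.0452) and Muc4 as lower (-0.65, adjusted p = 0.0499), where 2.88% of all genes were called. Without both WT replicate 1 and p63KO;Villin-Cdx2 replicate 1, Tff2 was the 1 member that passed in the sample channel, 17.8-fold higher with Cdx2 than in WT (4.16, limma, adjusted p = 0.0409), where 2.03% of all genes were called.

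**Figure D4:**
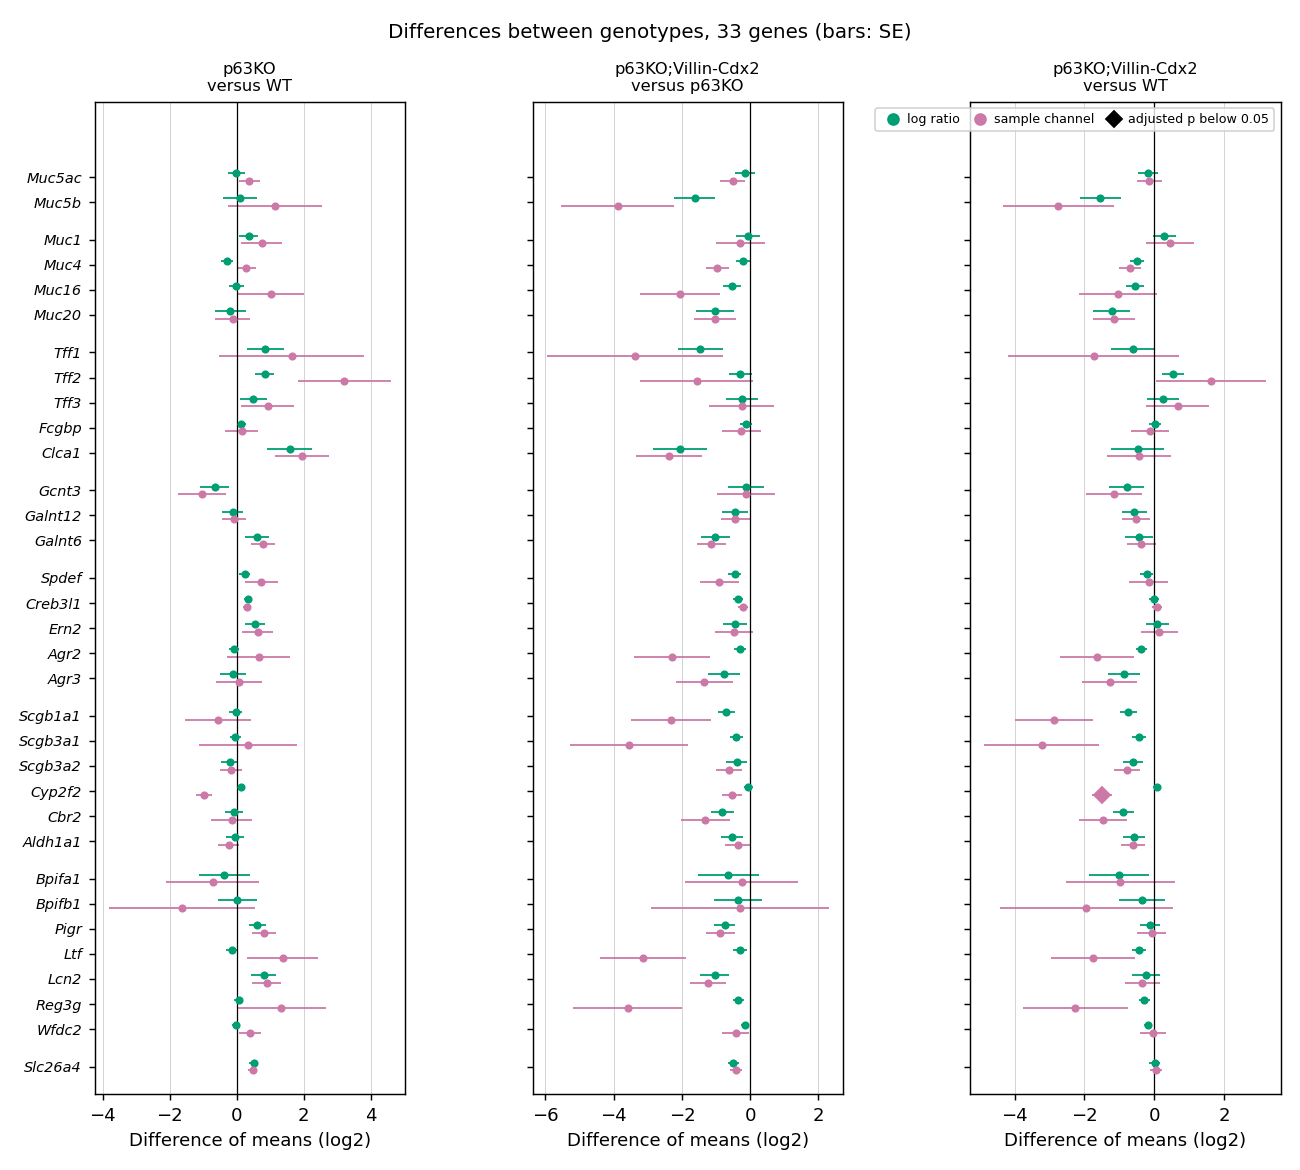
Difference between genotype means (log2, horizontal axis) for the 33 genes in the 3 comparisons, in the log ratio (green) and the sample channel (pink). Bars are the SE of limma, and a diamond marks an adjusted p below 0.05, which only Cyp2f2 reached, in the sample channel of p63KO;Villin-Cdx2 against WT. All 33 genes lie left of 0 in both measures for p63KO;Villin-Cdx2 against p63KO.

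On the arrays that stood apart, the 2 channels moved together for many members but not for all. For Tff1 the reference signal was 13.64 in WT replicate 1 and 7.12 to 7.16 in the other WT arrays. For Bpifb1 it was 13.84 against 6.74 to 6.99. For Scgb3a1 the reference signal was 8.38 in p63KO;Villin-Cdx2 replicate 1 and 13.59 to 15.23 on the other arrays, so that its log ratio was 2.34 there and 2.72 in replicate 2, while the sample channel fell 151-fold. The reference of Reg3g was 7.78 on that array and 13.68 in replicate 2, with log ratios of 3.09 and 3.13. Galnt6, whose reference signal stayed within 10.37 to 10.61, had log ratios of -1.90 and -0.47 in the p63KO;Villin-Cdx2 arrays, and its sample signal fell 2.70-fold between them. Its lower value on replicate 1 was therefore seen in both measures. Muc20 and Galnt12 were also lower on replicate 1 with a steadier reference. It was 8.62 and 8.80 in the p63KO;Villin-Cdx2 arrays for Muc20, and 12.70 and 12.76 for Galnt12.

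**Figure D5:**
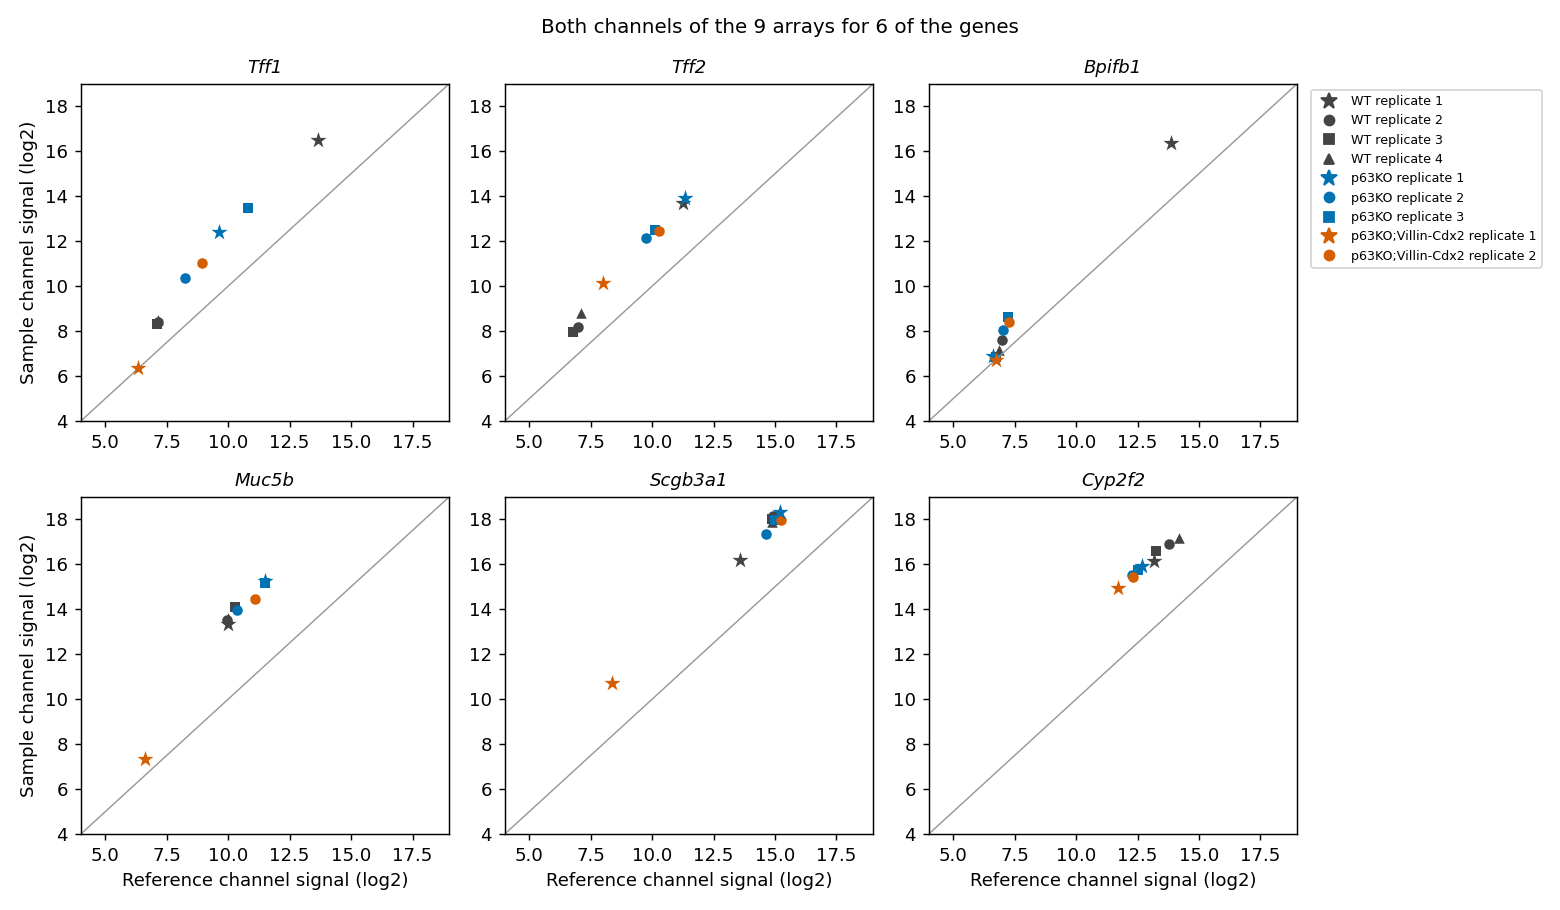
Sample channel signal (vertical axis) against reference channel signal (horizontal axis), both log2, for 6 genes. Each mark is 1 of the 9 arrays, coloured by genotype and shaped by replicate number, and the line marks equal signals. Marks that are high in 1 channel are high in the other, as for Tff1, whose reference signal is 13.64 in WT replicate 1 and 6.35 in p63KO;Villin-Cdx2 replicate 1.

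Other genes of the same pathways were read from lists. In the log ratio, 0.812% of all genes were called in p63KO against WT, 0% in p63KO;Villin-Cdx2 against p63KO and 3.55% in p63KO;Villin-Cdx2 against WT. In the sample channel the shares were 1.96%, 0.296% and 2.89%. Of 14 further mucins, 8 were kept, and Muc15, a membrane mucin, was the 1 that passed. It stood at 7.95 to 8.59 in WT, 6.05 to 6.24 in p63KO, and 5.99 and 6.45 in p63KO;Villin-Cdx2, and it fell in p63KO (-1.84, SE 0.15, limma on the log ratio, adjusted p = 7.7e-04) and in p63KO;Villin-Cdx2 (-1.74, SE 0.17, adjusted p = 0.00204) against WT. The intestinal gel-forming mucin Muc2 stayed at 6.20 to 6.94. Of 24 kept O-glycan enzymes, Gcnt2 fell in p63KO;Villin-Cdx2 against WT (-0.81, SE 0.17, limma on the log ratio, adjusted p = 0.0398), and none passed in the other comparisons. None of the 23 genes of the endoplasmic reticulum list passed in any comparison.

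Of 13 kept transcription factors of secretory and foregut epithelium, none rose and 2 fell in p63KO against WT in the log ratio: Klf5 (-0.62, SE 0.08) and Sox2 (-0.66, SE 0.11), with limma adjusted p of 0.0116 and 0.0377. In p63KO;Villin-Cdx2 against WT, 4 fell in the log ratio. Of all genes, 0.812% and 3.55% were called in these 2 comparisons. Klf5 (-0.94, SE 0.09) and Sox2 (-0.90, SE 0.13) fell again (limma, adjusted p = 0.00213 and 0.0107). Elf3 (-1.23, SE 0.20) and Klf4 (-0.99, SE 0.19) fell as well (limma, adjusted p = 0.0214 and 0.0333). Klf5, Sox2 and Klf4 are also factors of squamous epithelium. Of 26 kept airway secretory genes outside the set, none rose, and Cyp2a5 (-2.22, SE 0.24), Por (-0.83, SE 0.14) and Tgm2 (-0.46, SE 0.08) fell in p63KO;Villin-Cdx2 against WT (limma on the log ratio, adjusted p = 0.00321, 0.0219 and 0.0214). Cyp2a5 is a cytochrome P450 and Por is the reductase that feeds electrons to such enzymes. In p63KO;Villin-Cdx2 against p63KO, none passed in any of these lists. Almost no gene could be expected to, since 0% of all genes were called there in the log ratio and 0.296% in the sample channel.

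Markers of neighbouring tissues also varied between arrays of 1 genotype. The 10 thyroid follicle genes, led by Tg, summed to 12.35, 11.71, 17.68 and 16.99 in WT replicates 1 to 4, 13.59, 16.31 and 16.48 in p63KO, and 12.46 and 13.18 in p63KO;Villin-Cdx2. Slc26a4 is known in thyroid follicles. On the 4 arrays with the highest sums it stood at 7.78 and 7.56 in WT and at 8.01 and 8.26 in p63KO, and the part of thyroid tissue in its values was not tested. The cartilage list was highest in WT replicate 3 (17.21), and the alveolar list lowest there (16.11, against 18.46 to 19.01 elsewhere). Members differed on that array. Scgb3a2 and Cbr2, at 18.65 and 16.93, lay inside the range of the other WT arrays. Of the 6 club cell genes, only Scgb1a1 was the lowest of the WT arrays there (12.38, against 13.01 to 14.34). Muc1, at 7.61, was the lowest of all 9 arrays, and Bpifa1 (11.87) and Tff3 (11.57) were the highest. The part of lung tissue in these values was not tested.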

How the data were processed

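Per the file headers, the 9 files give spot intensity (mean) and local background intensity (median) for both channels, from Agilent Feature Extraction 10.7.3.1, whereas version 9.1 stands in the submitters' processing notes. Coordinates are mm9, per the file headers. The authors' processed log10 ratio of Cy5 over Cy3 and a flag for spots well above background (a score of 1 or 0) stand beside them, per the file headers. The deposited value table holds log2 ratios, and its columns equalled the log2 of the scanner's processed ratio of the same array (r = 1), with medians of -0.21 to -0.03. How the authors chose probes for it is not given in the sources used here.

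Spots marked as non-uniform or outlying (196 to 294 per array) were left out. On WT replicate 3 a few spots beside bright debris had a very high local background, which shifted the normexp fit for all its spots. Where a local background was over 2 times the median of its array, that median was used in its place (17 spots or fewer per array, on the WT arrays). This was decided after the data were seen. Background was then corrected by normexp with an offset of 50, and loess was applied to the ratios of each array. The sample and reference channels were taken after loess and Aquantile. After averaging the spots of a probe, the brightest of the kept probes stood for its gene (33761 probes, 22651 genes). Of 41174 probes, 26918 were named through their accession, 5082 by symbol and 817 by synonym from RefSeq (GRCm38.p6, names only), and 8357 by the file. Bpifa1, Bpifb1 and Clca1 are listed under older names.

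The tests came from limma 3.58.1 (R 4.3.3), fitting the 3 genotypes of all 9 arrays together (lmFit, eBayes), with Benjamini-Hochberg adjustment over all genes at 0.05. The labels call the samples biological replicates, and nothing more says how they were drawn. A bound takes each dim array at the higher of its own value and its lowest signal well above background. Simulated log ratios were drawn as independent normal values from the mean and spread of each of the 22651 genes. Changed genes were picked at random among them. Of those changed by 1 log2 unit, limma called 81%, 66% and 66% (p63KO against WT, p63KO;Villin-Cdx2 against p63KO, and against WT). Of those changed by 2, it called 93%, 95% and 94%. The sample channel and the set by itself were not simulated, so these rates do not give the power for the set. Same-numbered arrays of different genotypes correlated at -0.13 to 0.28 in their deviations from the group means. With 2 to 4 arrays in a group, this cannot decide whether the numbers pair them, and the arrays were fitted unpaired. The number of arrays limits the precision.

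Members and lists were chosen with earlier results of these data known. All 33 members are accounted for. Per array values are given for members that passed and for the 3 of each role with the widest sample range, and further array values in the text were picked after they were seen. Of the other lists, up to 3 genes that passed are named per direction and comparison, and Sox2 in addition.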

Additional observations from a re-analysis of the deposited data

Results flagged for a closer look

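Within WT, the only group large enough for the check, single arrays lay far from the other 3 by Dixon's criterion, which chance meets in about 1 in 20 groups. It was met 14 times over the 33 genes and both measures. Of these, 12 were on WT replicate 1, the array with gastric genes. In the sample channel its high values were Tff1 at 16.49 (8.34 to 8.51 on the others), Tff2 at 13.71 (7.94 to 8.79), Bpifb1 at 16.34 (6.87 to 7.60), Fcgbp at 10.44 (8.41 to 8.54), Gcnt3 at 9.45 (6.37 to 6.52) and Ern2 at 9.55 (7.60 to 7.71). Its low values were Scgb3a1 at 16.18 (17.87 to 18.16) and Reg3g at 13.84 (16.62 to 17.01). In the log ratio it was high for Tff1 at 2.85 (1.21 to 1.35), Gcnt3 at 2.03 (0.09 to 0.13) and Ern2 at 1.96 (0.66 to 0.85), and low for Scgb3a2 at 5.64 (6.499 to 6.61). The other 2 were on WT replicate 2, with Pigr at 6.65 in the sample channel (6.37 to 6.39) and Galnt6 at -1.004 in the log ratio (-0.69 to -0.62).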

How the results depend on the processing

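No choice tried on all 9 arrays, other than the sample channel and the mean over probes, moved the count of members called from 0 in the log ratio. Against WT, p63KO;Villin-Cdx2 had 1 member called in the sample channel (Cyp2f2, 0.09 in the log ratio and -1.50 there) and 1 with the mean of probes (Muc4). Counts of all genes moved more. For p63KO against WT the count was 184, and it was 445 in the sample channel, 297 with only the 2 groups, 308 with array weights and 74 with local background as deposited, a setting added after the data were seen. For p63KO;Villin-Cdx2 against p63KO it was 0, and 4 with the scanner's processed signals or the authors' table, 1 with offset 16, 1 with a trended and robust prior and 67 in the sample channel. For p63KO;Villin-Cdx2 against WT it was 803, and 398 with the scanner's signals or the authors' table, 455 with only the 2 groups, 415 with array weights and 319 with background as deposited. Median centring in place of loess split that comparison into 406 higher and 383 lower, against 264 and 539. With the replicate block the counts were 52, 0 and 35 genes and 0 members. Nothing in the labels says whether shared numbers mark pairs.

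Leaving out 1 replicate at a time gave, in the same order, 84 to 297, 0 to 116 and 243 to 1182 genes in the log ratio, with 0 to 1, 0 to 1 and 0 to 5 members, and 199 to 548, 9 to 213 and 201 to 832 genes in the sample channel, with 0 to 3, 0 to 3 and 0 to 5 members. The lowest and highest gene counts came without p63KO replicate 2 (84, 199 and 9), WT replicate 4 (243 and 201), p63KO;Villin-Cdx2 replicate 1 (297, 116, 548 and 213, with 297 also without its replicate 2) and p63KO replicate 1 (1182 and 832). Leaving out WT replicate 1 and p63KO;Villin-Cdx2 replicate 1 together, added after the data were seen, gave 2 members in the log ratio and 4 in the sample channel for p63KO against WT, and 113 and 163 genes for p63KO;Villin-Cdx2 against p63KO. Leaving out p63KO replicate 1 as well gave 1 and 2 members, 99 and 124 genes, and 1 member in the log ratio against WT. The cause was not tested. Gcnt3 had signal near background outside WT replicate 1, which limits its values to bounds.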
